A study of Stylophora pistillata with 18 samples.

Results

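In the stony coral Stylophora pistillata, 1320 divergent neighbour pairs were described, in which adjacent gene models lie back to back with short gaps between them. They were chosen from 26297 adjacent pairs of the deposited annotation, which holds 29419 models. The left model of a pair lies on the minus strand and the right one on the plus strand, with 0 to 1000 bases between the end of the left and the start of the right. Both models come from the predictor Gnomon, both have 2 to 29 coding segments (CDS), and both have 10 or more counts in at least 3 of the 18 libraries. Of 5136 divergent neighbours that are both Gnomon models, 1832 met the gap limit, 1382 of these also met the limit on coding segments, and 62 of those were lost to the count limit. No measured difference between treatments entered the choice. No model belongs to more than 1 pair, so the 1320 pairs hold 2640 members, on 499 scaffolds with at most 23 pairs each.

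Genes that lie head to head start their transcription in opposite directions from a common stretch of DNA, which can work as a bidirectional promoter. In vertebrate genomes many such pairs are housekeeping genes, for example of DNA repair, chromatin and mitochondrial function, and their promoters are often rich in CpG and poor in TATA boxes. Partners may be transcribed together, but a shared region does not by itself make their RNA levels equal, since each direction has its own start site and each RNA its own stability. The agents used here are cyclic dinucleotides, small signals that cGAS-like receptors make and that STING proteins bind in animal innate immunity.

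Specimens of 2 adult wild-type colonies were kept for 18 h in seawater (control), or in seawater with 250 µM 3'3'-cUA, a cyclic dinucleotide of uridine and adenosine, or with 250 µM 2'3'-cGAMP, one of guanosine and adenosine. Each group has 6 libraries, 3 from each colony, named below by colony number and specimen letter. Specimens of a colony share their source, so a p-value here reflects variation among specimens of 2 colonies, and so few colonies give little ground for other colonies. In such whole-tissue RNA, fewer cells of a type and less RNA per cell cannot be told apart. The tissue label could not be checked against markers, because the models carry no product names. Library totals ran from 22175801 to 41800393 counts. The composition factors by which library sizes were adjusted were 0.714 in control 1A and 0.619 in cUA 2A. They were 0.862 to 1.23 in the other libraries, so control 1A and cUA 2A stand apart. Median co-expression by kind of neighbour and the numbers of calls and changed ratios are given with and without them. Correlations with models of other pairs, results by gap or level, shares of responding partners and correlations of fold changes are given over all 18 libraries alone. How far those rest on the 2 libraries was not tested.

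The gap between partners had a median of 299 bases, with quartiles of 189 and 495 and a range of 1 to 999. In all 24830 Gnomon models the annotated transcript covers the coding span alone, so the gap runs from coding start to coding start and the places of the transcription starts are not known. Divergent pairs were more numerous under the same limits than convergent pairs, whose ends face each other (372), or tandem pairs, which lie on 1 strand (506). In convergent pairs the gap runs from coding end to coding end, and in tandem pairs from coding end to coding start. The gap limit thus covers different parts of the genes in each kind, and the effect on these numbers was not tested. Divergent neighbours over 1000 and up to 10000 bases apart numbered 1200 and serve as a comparison below. Whether partners are neighbours could be looked up in a reference gene table of another assembly, jaStyPist1.2, for the 802 pairs with both partners matched by protein accession. All 802 lie on the same chromosome there, and in 761 (94.9%) the partners are next to each other among protein-coding genes. The share was 96.2% in convergent, 93.8% in tandem and 90.6% in far divergent pairs. Strand and gap were not compared with the reference, so the head-to-head layout was not checked there. The symbols in that table are LOC numbers, which carry no function, so no role is given to any member.

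Members were at higher levels than the other kinds of neighbour. Their median level in the control libraries was 16.7 CPM per kb of coding length, with quartiles of 6.84 and 40.6. CPM is the count scaled to a common library size after that adjustment. Under the same limits on segments and counts, the median was 8.36 CPM per kb in convergent models, 4.49 in tandem models and 11.7 in the divergent models farther apart. The median standard deviation of members within groups was 0.399 on the log2 CPM scale, against 0.488 in convergent, 0.627 in tandem and 0.521 in far divergent models. In 1135 of the 1320 pairs both partners reached 10 counts in all 18 libraries.

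Partners were often unequal in level. The absolute log2 ratio of their levels per kb, each a mean over all 18 libraries, had a median of 1.89 over the divergent pairs. Its quartiles were 0.922 and 3.25. It was 2.36 in convergent pairs, 1.06 in tandem pairs and 2.32 in far divergent pairs. In the 69 divergent pairs with gaps of at most 100 bases it was 1.27, and in the 321 with gaps over 500 bases it was 1.98.

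Co-expression was measured as Pearson's r between partners over the 18 libraries, on log2 CPM, and again on deviations from the 6 means of treatment and colony. The second leaves only differences between specimens that had the same treatment and colony. All pairs share the same 18 libraries, so the values are not independent of each other and are given as a description without a test. The median r of the divergent pairs was 0.308, with a spread of 0.0675 estimated from leaving out each library in turn. On the deviations the median was 0.373, with a spread of 0.0881. A left partner set against the right partners of other pairs gave a median of 0.0967 on the deviations, and 0.127 where the other pair lay on the same scaffold.

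Partners did not all vary together. On the deviations, 39.4% of the divergent pairs had an r of at least 0.5 and 5.15% (68 pairs) had at least 0.9, while 29.4% (388 pairs) were below 0 and 8.18% (108 pairs) were at -0.5 or lower. In 22 pairs the left model was closer to its own neighbour than to any of the other right partners, and in 72 pairs its neighbour was among the 13 closest, a set that holds 0.985% of all right partners. Median co-expression differed between orientations, though no test of the difference was made. The kinds also differ in gap, with a median of 299 bases in divergent, 708 in convergent and 454 in tandem pairs. The part of the gap in the difference was not tested. The median on the deviations was 0.244 in convergent pairs, 0.574 in tandem pairs, 0.169 in far divergent pairs and 0.168 over all 16697 adjacent pairs with both models tested. Tandem neighbours thus had the highest median of these kinds. Whether neighbouring models on 1 strand are parts of a single transcript was not tested.

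**Figure D1:**
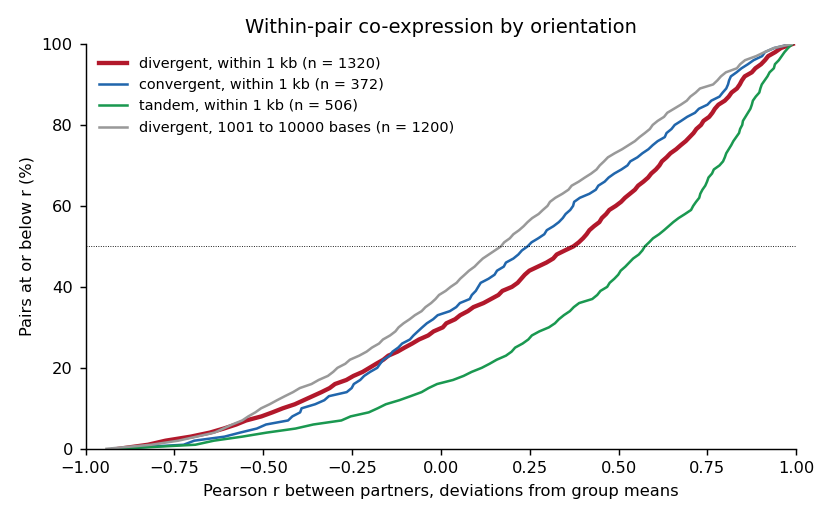
Share of pairs (y axis, %) at or below each within-pair Pearson r (x axis, no unit), computed on deviations of log2 CPM from the 6 group means, for 4 kinds of neighbour. The curve of the divergent pairs crosses 50% at 0.373, to the right of the convergent (0.244) and far divergent pairs (0.169) and to the left of the tandem pairs (0.574).

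On the deviations closer partners had somewhat higher correlations. The median on the deviations was 0.454 in the 69 pairs with gaps of 1 to 100 bases, 0.395 in 456 pairs over 100 and up to 250, 0.385 in 474 pairs over 250 and up to 500 and 0.295 in 321 pairs over 500. Over all libraries, with treatment differences left in, the medians were 0.471, 0.302, 0.33 and 0.283, which do not fall steadily with the gap. The comparison with convergent pairs changed with level. Among pairs with both partners above the median level of all tested models, 6.84 CPM per kb, the median was 0.322 in 765 divergent pairs and 0.312 in 128 convergent pairs, 0.208 in 477 far divergent pairs and 0.747 in 153 tandem pairs.

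Co-expression was lower without the 2 libraries that stand apart. Without control 1A and cUA 2A the median on the deviations dropped to 0.202 in divergent pairs, to 0.190 in convergent, 0.432 in tandem and 0.153 in far divergent pairs, and to 0.126 over all tested adjacent pairs. The divergent pairs then lay close to the convergent ones. In colony 1 alone the divergent median was 0.380, beside 0.291 in convergent pairs, and in colony 2 alone 0.360 beside 0.241, and each of these subsets holds 1 of those libraries.

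**Figure D2:**
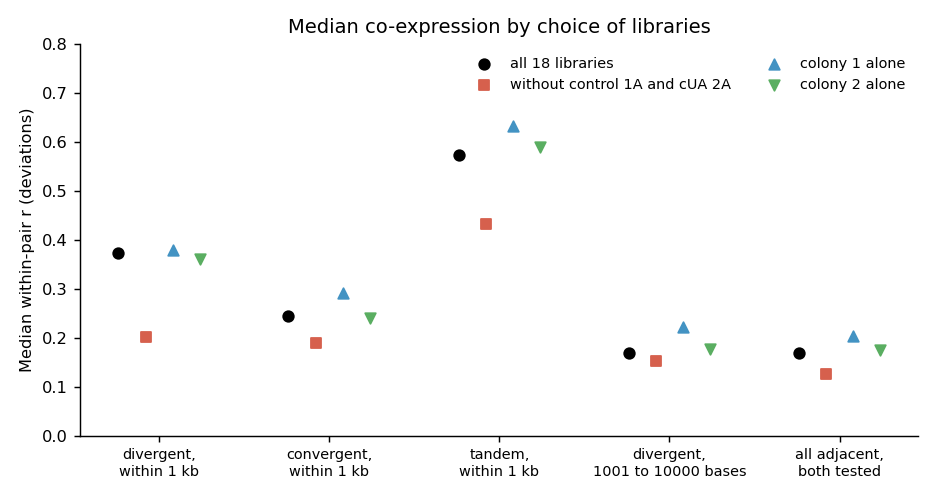
Median within-pair Pearson r on deviations from group means (y axis, no unit) for 5 sets of neighbours (x axis), with symbols for the libraries used. The divergent median moves from 0.373 over all 18 libraries to 0.202 without control 1A and cUA 2A, next to 0.190 in convergent pairs.

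The pairs with the highest r of those open to naming, that is with a reference symbol and a mean of at least 1 CPM in both partners, show the same libraries at their extremes. The pair LOC111327333 and LOC111327334 lies on scaffold NW_019217882.1, at 20101 to 42948 on the minus strand and 43449 to 53063 on the plus strand, with a gap of 500 bases. LOC111327333 had 399 to 1658 CPM (median 786) in the controls, 600 to 2569 (741) with cUA and 703 to 2063 (1145) with cGAMP. LOC111327334 had 346 to 1468 CPM (median 612) in the controls, 557 to 2164 (642) with cUA and 630 to 1725 (1074) with cGAMP. Both were highest in control 1A, cUA 2A and cGAMP 1A within their groups, and the groups overlapped. On the deviations r was 0.990 and Spearman's rho 0.971, and r was 0.984 without the 2 farthest libraries, cUA 2A and cUA 2B. The log2 ratio of the right to the left partner stayed between -0.41 and -0.07 in all 18 libraries. Of the 2 partners, neither passed the edgeR test with either compound.

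In the pairs with the next highest r of those open to naming 1 library or more set the range. LOC111334434 (scaffold NW_019218027.1, 176606 to 180384, minus) and LOC111334448 (180819 to 193639, plus) had an r of 0.983 on the deviations. LOC111334434 had 685 CPM in control 1A and 49.1 to 223 in the other controls, and 712 CPM in cUA 2A against 122 to 161 in the other cUA libraries. LOC111334448 had 331 CPM in control 1A against 24 to 86.8 in the other controls. Without cUA 2A and control 1A the r was still 0.951. LOC111323473 (scaffold NW_019217832.1, 918208 to 930002, minus) and LOC111323482 (930296 to 940844, plus) had an r of 0.969, and 0.923 without the same libraries. LOC111323482 was the one model of these 3 pairs to pass the edgeR test with either compound. It rose with cGAMP, from 11.4 to 58.0 CPM (median 30.2) in the controls to 63.0 to 80.4 (68.5), by 1.25 on the log2 scale (SE 0.38, edgeR adjusted p = 0.0246). That call is lost without control 1B, 1C, 2B or 2C or cGAMP 1C, with the adjusted p reaching 0.167 over the alternatives. The log2 ratio of LOC111323482 to LOC111323473 rose by 0.78 with cGAMP (SE 0.22, limma adjusted p = 0.0155), a call lost in each colony alone.

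Other partners went apart between specimens. LOC111332268 (scaffold NW_019217973.1, 324091 to 331682, minus) and LOC111332283 (332229 to 341579, plus) had the lowest r of the pairs open to naming, -0.873. In the controls LOC111332268 had 55.6 to 233 CPM (median 91.3) and was highest in control 1A, where LOC111332283 was lowest, at 12.9 CPM in a range up to 36.0 (median 26.8). In cUA 2A LOC111332268 was highest of its group, at 263 CPM, and LOC111332283 lowest, at 12.3. Without these libraries r was -0.735. LOC111323860 (scaffold NW_019217837.1, 402788 to 418447, minus) and LOC111323938 (418692 to 432946, plus) had an r of -0.862, and -0.695 without cUA 2A and control 1A. There too the left partner was highest and the right one lowest in cUA 2A, at 166 and 2.61 CPM, and in control 1A, at 125 and 6.62 CPM. None of these 4 models passed the edgeR test with either compound.

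The response to the compounds was tested with edgeR's quasi-likelihood test over all 21375 models that passed its filter, of which 2636 are members. A model is called when its adjusted p is below 0.05. The share of members that rose was near the background, and the share that fell was below it, a difference that was not itself tested. With cUA 138 members (5.24%) rose, against 5.91% of all tested models, and 45 (1.71%) fell, against 4.29%. With cGAMP 243 members (9.22%) rose, against 9.22% of all tested models, and 208 (7.89%) fell, against 12.3%. Scaling by upper quartile factors, which moved the median log2 fold change of all tested models from -0.07 to -0.172 with cGAMP and from -0.02 to -0.096 with cUA, gave 6.64% risen and 10.3% fallen members with cGAMP, against 7.67% and 15.3% of all tested models. With cUA it gave 4.14% and 2.31% of members, against 5.19% and 5.38% of all.

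The number of calls moved with the controls used. Without control 1A 212 members (8.03%) rose and 122 (4.62%) fell with cUA, against 9.07% and 6.49% of all tested models, and 358 (13.6%) rose and 340 (12.9%) fell with cGAMP, against 13.5% and 15% of all. Without control 2A 82 (3.11%) rose and 18 (0.682%) fell with cUA, against 3.85% and 2.44%, and 174 (6.59%) rose and 154 (5.83%) fell with cGAMP, against 7.14% and 9.27%. Leaving out control 1A and cUA 2A gave 7.31% risen and 4.09% fallen members with cUA, against 7.71% and 5.93% of all tested models. With cGAMP the same step gave 17.2% risen and 17.7% fallen members, against 16.5% and 18.0% of all, so that the smaller share of falls was then close to the background.

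Changes in members were small for the most part. The median absolute log2 fold change of members was 0.221 with cUA and 0.304 with cGAMP, beside 0.352 and 0.468 over all tested models. Risen members had a median log2 fold change of 1.07 with cUA and 0.846 with cGAMP, beside 1.63 and 1.31 for all risen models. With cGAMP the direction of the calls went with the level of the model, in members and in all models. The level is a mean over all 18 libraries, treated ones included, so a rise or fall itself moves a model's level. How much of the link comes from this was not tested. In the highest quartile of all tested models by mean CPM per kb, which holds 1015 members, 6.50% of members rose and 0.788% fell with cUA, against 7.69% and 3.11% of all models there. With cGAMP 12.5% of these members rose and 4.04% fell, against 14.0% and 7.54%. In the lowest quartile, with 155 members, 3.87% rose and 25.2% fell with cGAMP, against 3.84% and 15.6% of all models there. The cUA calls were less one-sided in that quartile, with 5.16% of members risen and 7.1% fallen, against 3.54% and 6.19% of all.

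**Figure D3:**
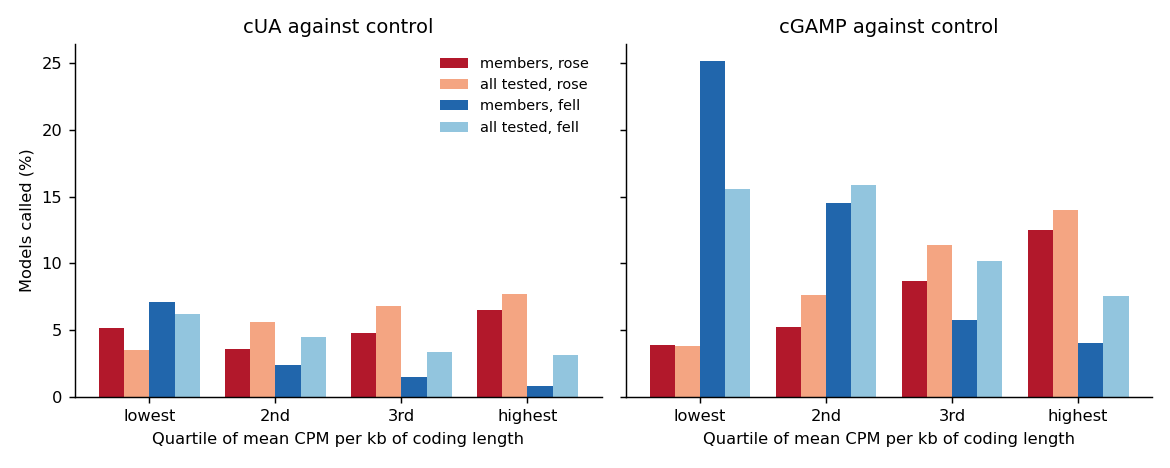
Share of models that rose or fell (y axis, %, edgeR adjusted p below 0.05) by quartile of mean CPM per kb of coding length (x axis) for each compound, in members of divergent pairs and in all tested models. The mean is over all 18 libraries, treated ones included. In the highest quartile members fell in 0.788% of cases with cUA and 4.04% with cGAMP, below the 3.11% and 7.54% of all models there, while in the lowest quartile 25.2% of members fell with cGAMP.

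Joint responses were a minority. With cUA both partners rose in 19 of the 1316 pairs with both models tested, both fell in 4, and they moved apart in 1. These are 1.44%, 0.304% and 0.076% of the pairs, against 1.34%, 0.737% and 0.27% of all tested adjacent pairs. In 99 pairs 1 partner alone rose, in 36 pairs 1 alone fell, and in 1157 neither was called. With cGAMP both rose in 33 pairs, both fell in 15, and they moved apart in 14, which is 2.51%, 1.14% and 1.06%, against 2.17%, 2.87% and 1.71% of all tested adjacent pairs. With cGAMP 1 partner alone rose in 163 pairs, 1 alone fell in 164, and 927 had no call. A risen member had a risen partner in 27.5% of cases with cUA, the same share as in far divergent pairs (27.5%), and more than in convergent pairs (17.4%) or all tested adjacent pairs (22.5%). With cGAMP it was 27.2%, beside 28.3% in far divergent, 16.9% in convergent and 23.3% in all adjacent pairs. In tandem pairs the share was 39.4% with cUA and 52.3% with cGAMP.

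The number of shared falls moved with the libraries used, with both partners fallen in 11 pairs with cUA and 42 with cGAMP without control 1A, and in 5 and 67 without control 1A and cUA 2A. Both rose in 29 and 49 pairs without control 1A, and in 27 and 64 without both libraries. The shares of all adjacent pairs were not computed for these subsets. Calls over all tested models also grew there, in the same order. With cGAMP falls went from 12.3% to 15% and 18.0%, and rises from 9.22% to 13.5% and 16.5%. With cUA falls went from 4.29% to 6.49% and 5.93%, and rises from 5.91% to 9.07% and 7.71%. Over all libraries a fallen member had a fallen partner in 17.8% of cases with cUA (8 of 45 members), beside 17.1% over all adjacent pairs, and in 14.4% with cGAMP (30 of 208), beside 22.7%. Over all divergent pairs the log2 fold changes of partners had a Pearson correlation of 0.397 with cUA and 0.344 with cGAMP, beside 0.299 and 0.276 over all adjacent pairs. Spearman's rho was 0.238 and 0.194, beside 0.227 and 0.208, so by rank the divergent pairs were close to other neighbours. These are correlations across 1316 pairs, whose partners share their libraries and are not independent replicates. The sign of the fold change was the same in 56.4% of pairs with cUA and 56.6% with cGAMP, against 57.2% and 56.5% of all adjacent pairs.

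**Figure D4:**
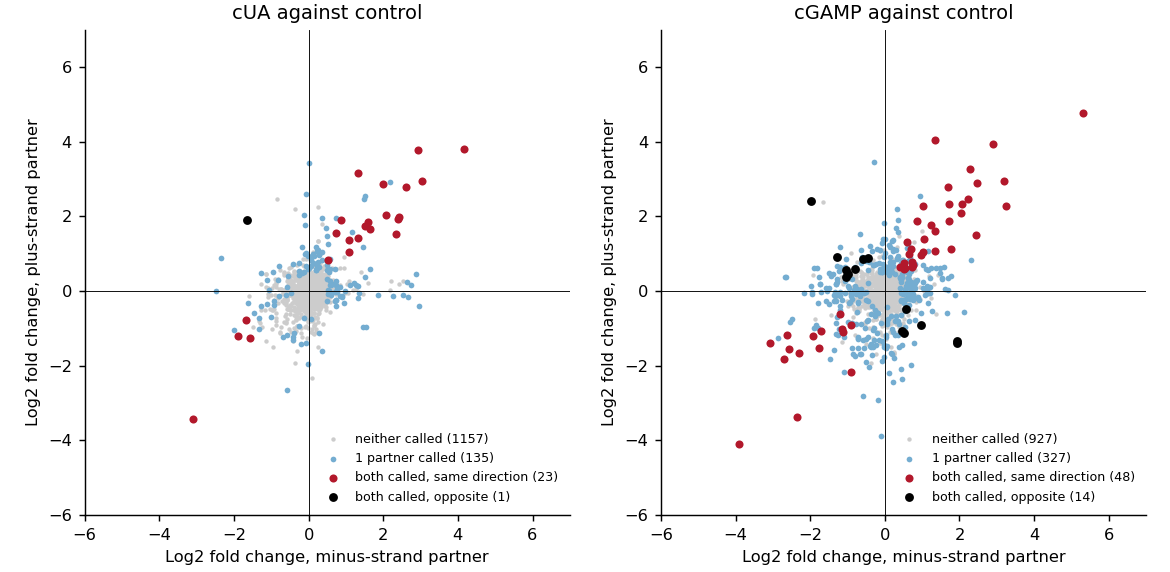
Log2 fold change against control of the plus-strand partner (y axis) and the minus-strand partner (x axis), 1 point for each of 1316 divergent pairs, with cUA on the left and cGAMP on the right. Pairs with both partners called in the same direction (23 and 48) run along the diagonal, and those with opposite calls (1 and 14) lie off it.

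A second test asked whether partners responded unequally, by the change of the log2 ratio of the right to the left partner, in which the scaling of a library cancels. It was fitted with limma over all 16697 adjacent pairs with both models tested. With cUA the ratio changed in 60 divergent pairs (4.56%), against 8.46% of all adjacent pairs. With cGAMP it changed in 237 (18.0%), against 21.5%. The share was 10% and 19.7% in convergent pairs, 5.24% and 9.27% in tandem pairs, and 9.52% and 23.3% in far divergent pairs. With cGAMP 7 of the 33 pairs that rose together had a changed ratio, so partners called in the same direction could still differ in size. Of the 327 pairs with 1 partner called with cGAMP, 151 had a changed ratio. Without control 1A the count with cUA was 164, or 12.4% of pairs against 14.5% of all adjacent pairs. Without control 1B, 1C, 2A or 2B it was 27, 30, 25 and 33, and without cUA 1B it was 35, which is 1.89% to 2.66% of pairs, while the share of all adjacent pairs was 5.01% to 5.93%. Without control 2A the count with cGAMP was 157 (11.9%, against 15.6%). Without control 1A and cUA 2A the shares were 10.1% with cUA and 33.7% with cGAMP, against 12.7% and 34.7% of all.

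Of the pairs with both partners called, 19 rose and 3 fell with both compounds, a tally that was not made over all adjacent pairs. The comparisons share the 6 control libraries, so their agreement is no separate result and serves here to choose pairs to name. Naming was limited to 752 pairs with a reference symbol and a mean of at least 1 CPM in both partners, of which 7 rose and 2 fell in this way.

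Of all 19 pairs the largest joint rise, by the smallest of the 4 log2 fold changes (3.8), was that of LOC111344498 and LOC111344513 on scaffold NW_019217800.1, at 70291 to 75279 on the minus strand and 76205 to 79404 on the plus strand, 925 bases apart. LOC111344498 had 5.51 to 15.7 CPM (median 8.56) in the controls, 84.2 to 342 (144) with cUA and 174 to 607 (337) with cGAMP. LOC111344513 had 3.40 to 8.99 CPM (median 4.88) in the controls, 32.2 to 128 (65.8) with cUA and 61.4 to 221 (140) with cGAMP. In both models every treated library was above every control, and the treated groups overlapped each other. LOC111344498 rose by 4.16 on the log2 scale with cUA (SE 0.39, edgeR adjusted p = 2.88e-06) and by 5.30 with cGAMP (SE 0.42, adjusted p = 2.72e-07). LOC111344513 rose by 3.8 with cUA (SE 0.38, edgeR adjusted p = 4.83e-06) and by 4.78 with cGAMP (SE 0.40, adjusted p = 4.55e-07). The ratio between the partners was not called as changed. Its log2 change was -0.37 with cUA (SE 0.23, limma adjusted p = 0.371) and -0.48 with cGAMP (SE 0.23, adjusted p = 0.152). The partners also varied together between specimens, with an r of 0.794 on the deviations and 0.751 without cGAMP 2A and cUA 2A. Per kb of coding length their mean control levels were 8.98 and 11.2 CPM.

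LOC111339705 and LOC111339711 lie 770 bases apart on scaffold NW_019218200.1, at 272307 to 273485 on the minus strand and 274256 to 277570 on the plus strand. LOC111339705 had 4.85 to 26.8 CPM (median 9) in the controls, 45.3 to 125 (71.2) with cUA and 35.9 to 109 (64.5) with cGAMP. LOC111339711 had 10.3 to 73.1 CPM (median 20.4) in the controls, 148 to 369 (173) with cUA and 121 to 482 (217) with cGAMP. No treated library overlapped the controls in either model. The rises were 2.62 and 2.46 on the log2 scale in LOC111339705 (SE 0.44 in both, edgeR adjusted p = 0.000694 with cUA and 0.000616 with cGAMP), and 2.79 and 2.90 in LOC111339711 (SE 0.52 in both, edgeR adjusted p = 0.00173 and 0.000661). Between specimens the partners had an r of 0.963 on the deviations, and 0.939 without cGAMP 2A and control 1A. Among the controls both were lowest in control 1C, at 4.85 and 10.3 CPM, and higher in control 1A and 2C than in the rest.

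LOC111318904 and LOC111318907 lie 299 bases apart on scaffold NW_019219413.1, at 6270 to 11488 on the minus strand and 11788 to 15125 on the plus strand. LOC111318904 had 8.14 to 20.9 CPM (median 10.8) in the controls, 25.5 to 81.1 (52.5) with cUA and 37.6 to 79.4 (49.5) with cGAMP. LOC111318907 had 1.67 to 4.4 CPM (median 2.47) in the controls, 4.25 to 17.1 (12.3) with cUA and 4.06 to 19.8 (15.3) with cGAMP. The left partner did not overlap the controls, while in the right partner cUA 2C and cGAMP 1A were below control 2C. LOC111318904 rose by 2.07 with cUA (SE 0.29, edgeR adjusted p = 0.000119) and by 2.08 with cGAMP (SE 0.28, adjusted p = 5.66e-05). LOC111318907 rose by 2.04 (SE 0.39, edgeR adjusted p = 0.00217) and by 2.33 (SE 0.39, adjusted p = 0.000405). The log2 ratio of the partners had a median of -2.23 in the controls, -2.20 with cUA and -1.82 with cGAMP, and its change was not called.

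In both eligible falling pairs the cUA calls depend on single control libraries. LOC111343910 and LOC111343912 lie 776 bases apart on scaffold NW_019218463.1, at 83309 to 85536 on the minus strand and 86313 to 88495 on the plus strand. LOC111343910 had 5.98 to 18.0 CPM (median 11.2) in the controls, 0.436 to 6.10 (4.27) with cUA and 0.901 to 3.62 (1.61) with cGAMP. LOC111343912 had 4.37 to 15.2 CPM (median 9) in the controls, 1.69 to 5.34 (4.27) with cUA and 1.28 to 4.34 (2.19) with cGAMP. The cGAMP libraries were all below the controls in both models, and the cUA libraries overlapped them. LOC111343910 fell by 1.57 with cUA (SE 0.43, edgeR adjusted p = 0.0277) and fell by 2.71 with cGAMP (SE 0.46, adjusted p = 0.000416). LOC111343912 fell by 1.25 with cUA (SE 0.34, edgeR adjusted p = 0.0241) and fell by 1.82 with cGAMP (SE 0.35, adjusted p = 0.00107). Both cUA calls are lost without control 1B, 1C or 2A, and that of LOC111343910 also without cUA 1C, with adjusted p up to 0.194 and 0.274 over the alternatives.

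LOC111323001 and LOC111323010 lie 526 bases apart on scaffold NW_019217786.1, at 1933120 to 1940496 on the minus strand and 1941023 to 1952109 on the plus strand. LOC111323001 had 17.4 to 153 CPM (median 99.9) in the controls, 14.2 to 47.2 (27.0) with cUA and 8.66 to 21.2 (14.2) with cGAMP. LOC111323010 had 11 to 20.8 CPM (median 17.8) in the controls, 5.28 to 13 (11) with cUA and 4.95 to 9.37 (7.91) with cGAMP. Both were lowest among the controls in control 2C. LOC111323001 fell by 1.68 with cUA (SE 0.42, edgeR adjusted p = 0.0153) and fell by 2.63 with cGAMP (SE 0.44, adjusted p = 0.000367). LOC111323010 fell by 0.78 with cUA (SE 0.21, edgeR adjusted p = 0.0243) and fell by 1.17 with cGAMP (SE 0.21, adjusted p = 0.000779). The cUA calls are lost without control 2A, that of LOC111323001 also without control 1A and cUA 2A together, and that of LOC111323010 also without control 1B, with adjusted p up to 0.223 and 0.208. The left partner fell further than the right. The log2 ratio of right to left rose by 1.30 with cGAMP (SE 0.37, limma adjusted p = 0.019), a call lost without control 2A or cGAMP 1B or 1C.

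**Figure D5:**
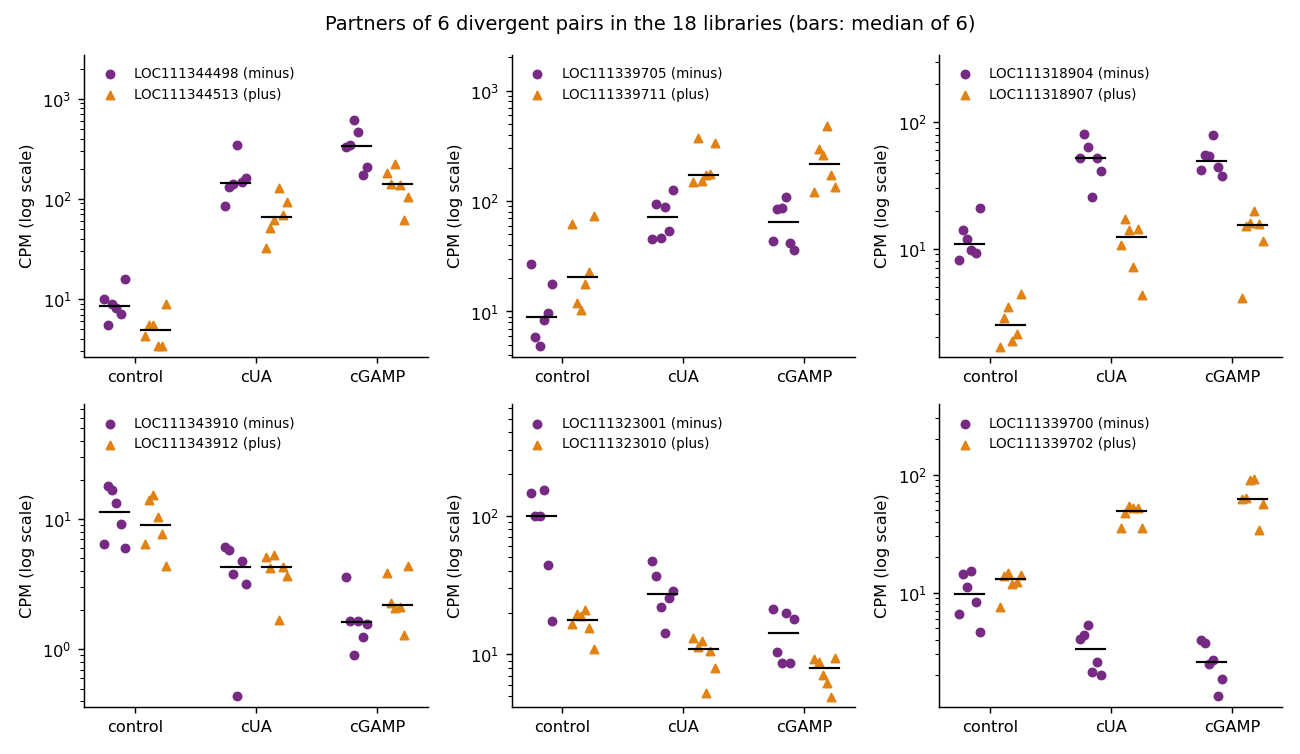
CPM (y axis, log scale) of the minus-strand partner (circles) and the plus-strand partner (triangles) in each of the 18 libraries by group (x axis), with bars at the median of 6, for the 3 named rising pairs, the 2 named falling pairs and 1 pair with opposite changes. In the first panel every treated library lies above every control in both partners, and in the last LOC111339702 rises while LOC111339700 falls.

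Opposite calls were found in 14 pairs with cGAMP (1.06%, against 1.71% of all tested adjacent pairs) and 1 with cUA (0.076%, against 0.27%). Eligible for naming were 11 pairs. The clearest was LOC111339700 and LOC111339702, 517 bases apart on scaffold NW_019218200.1, at 47602 to 52610 on the minus strand and 53128 to 63823 on the plus strand, the same scaffold as the rising pair of LOC111339705. LOC111339700 had 4.65 to 15.2 CPM (median 9.75) in the controls, 2.01 to 5.37 (3.31) with cUA and 1.33 to 4.01 (2.60) with cGAMP. LOC111339702 had 7.62 to 14.7 CPM (median 13.1) in the controls, 35.5 to 54.7 (49.6) with cUA and 34.1 to 91.5 (62.8) with cGAMP. The treated libraries of LOC111339702 were all above the controls, the cGAMP libraries of LOC111339700 were all below them, and its cUA libraries overlapped them. LOC111339700 fell by 1.65 with cUA (SE 0.30, edgeR adjusted p = 0.00161) and fell by 1.97 with cGAMP (SE 0.31, adjusted p = 0.000192), while LOC111339702 rose by 1.90 (SE 0.23, adjusted p = 3.47e-05) and by 2.42 (SE 0.24, adjusted p = 1.96e-06). The log2 ratio of right to left moved from -0.35 to 1.58 (median 0.29) in the controls to 3.12 to 4.59 (3.75) with cUA and 3.93 to 5.15 (4.75) with cGAMP. Its change was 3.42 with cUA (SE 0.31, limma adjusted p = 3.57e-06) and 4.23 with cGAMP (SE 0.31, adjusted p = 2.14e-07). Over all libraries the partners had an r of -0.706 and a rho of -0.612, and on the deviations an r of 0.400 and a rho of 0.364.

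The other named pairs with opposite calls were called in this way with cGAMP alone. LOC111323406 (scaffold NW_019217831.1, 898800 to 912107, minus) had 21.7 to 39.5 CPM (median 31.8) in the controls and 11.2 to 15.2 (12.7) with cGAMP, a fall by 1.28 on the log2 scale (SE 0.23, edgeR adjusted p = 0.000716). Its partner LOC111323408 (912361 to 913931, plus), 253 bases away, had 9.94 to 15.1 CPM (median 11.6) in the controls and 17.4 to 24.9 (22.6) with cGAMP, a rise of 0.90 (SE 0.24, edgeR adjusted p = 0.0117). Neither overlapped the controls.

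LOC111323907 and LOC111323905 (scaffold NW_019217837.1, 456559 to 459304, minus, and 459422 to 464320, plus) lie 117 bases apart, the shortest gap of the 4 named opposite pairs. LOC111323907 had 10.2 to 16 CPM (median 11.8) in the controls and 14.5 to 37.9 (25.2) with cGAMP, a rise of 0.97 (SE 0.25, edgeR adjusted p = 0.00998). LOC111323905 had 21.4 to 36.6 CPM (median 31.2) in the controls and 14.2 to 22.0 (15.4) with cGAMP, and it fell by 0.91 (SE 0.19, edgeR adjusted p = 0.00193). The ranges overlapped at their ends in both. The last of the 4, LOC111327633 and LOC111327632 (scaffold NW_019217887.1, 421329 to 422773, minus, and 423081 to 436336, plus), had an unstable call in the left partner. LOC111327633 had 4.63 to 10.4 CPM (median 9.03) in the controls and 4.26 to 5.68 (4.76) with cGAMP, which overlap. It fell by 0.81 with cGAMP (SE 0.27, edgeR adjusted p = 0.0377), a call lost under 15 of the 30 alternatives, among them leaving out any 1 of control 1B, 1C, 2A, 2B and 2C or of cGAMP 1A, 1B, 1C, 2A and 2C. LOC111327632 rose by 0.60 with cGAMP (SE 0.13, edgeR adjusted p = 0.00299), from 15.6 to 24.8 CPM in the controls to 29.2 to 35.6. The log2 ratio of right to left in this pair rose by 1.36 with cGAMP (SE 0.29, limma adjusted p = 0.00254). That ratio call was lost under 1 of 26 alternatives, colony 2 alone.

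In other pairs the ratio changed while only 1 partner was called, or neither. LOC111341491 (scaffold NW_019218288.1, 59696 to 62823, minus) had 2.15 to 9.85 CPM (median 4.28) in the controls, 12.4 to 24.6 (17.1) with cUA and 13.8 to 31.9 (21.6) with cGAMP, above the controls in every treated library. It rose by 1.86 with cUA (SE 0.33, edgeR adjusted p = 0.00107) and by 2.12 with cGAMP (SE 0.33, adjusted p = 0.000182). Its partner LOC111341482 (63146 to 75284, plus), 322 bases away, had 9.81 to 24 CPM (median 18.4) in the controls, 9.04 to 21.3 (17.1) with cUA and 6.83 to 15.8 (12.3) with cGAMP and passed neither test (edgeR adjusted p = 0.859 and 0.126). The log2 ratio of right to left fell by 2.07 with cUA (SE 0.35, limma adjusted p = 0.00113) and fell by 2.74 with cGAMP (SE 0.35, adjusted p = 3.05e-05).

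LOC111331110 (scaffold NW_019217949.1, 472360 to 474716, minus) had 1.87 to 7.61 CPM (median 4.61) in the controls and 0.412 to 1.69 (0.792) with cGAMP, and it fell by 2.64 (SE 0.51, edgeR adjusted p = 0.00115). Its partner LOC111331101 (475044 to 479392, plus), 327 bases away, had 13.3 to 43.1 CPM (median 30.7) in the controls and 33.6 to 42.4 (38.8) with cGAMP (edgeR adjusted p = 0.219). The log2 ratio rose by 2.91 with cGAMP (SE 0.42, limma adjusted p = 0.000101). In LOC111327048 and LOC111327086 (scaffold NW_019217877.1, 694278 to 697828, minus, and 698615 to 704294, plus) the ratio rose by 3.97 with cGAMP (SE 0.86, limma adjusted p = 0.00298), although neither partner was called. LOC111327086 had 0.199 to 8.10 CPM (median 0.416) in the controls and 1.32 to 19.2 (12.6) with cGAMP. Its log2 change was 2.39 (SE 1.13, edgeR adjusted p = 0.144). Its partner had 0.160 to 7.07 CPM (median 1.69) in the controls and 0.188 to 1.72 (0.969) with cGAMP. The partner's log2 change was -1.66 (SE 0.70, edgeR adjusted p = 0.102).

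Short gaps did not mean like behaviour in each case. The shortest gap among pairs open to naming, 14 bases, separates LOC111345217 (scaffold NW_019218623.1, 69594 to 73842, minus) from LOC111345220 (73857 to 78291, plus). Per kb their mean control levels were 45.2 and 843 CPM. LOC111345217 had 15.8 to 25.5 CPM (median 18.2) in the controls, 16.9 to 41.6 (21.9) with cUA and 21.0 to 30.4 (23.6) with cGAMP. LOC111345220 had 743 to 893 CPM (median 807) in the controls, 542 to 893 (694) with cUA and 631 to 1049 (695) with cGAMP. On the deviations r was 0.177 and rho 0.222, and neither model was called with either compound. Without knowing how strand was used in counting, reads of a partner that runs into its neighbour cannot be told apart from the neighbour's own.

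At the limit of the rule, the longest gap among pairs open to naming was 998 bases, between LOC111320639 (scaffold NW_019217804.1, 71891 to 78105, minus) and LOC111320652 (79104 to 98815, plus), with an r of -0.420 on the deviations. The first pair outside, with a gap of 1010 bases, is Spis_XP_022796152_1 and LOC111334624 (scaffold NW_019218032.1, 300152 to 304811, minus, and 305822 to 308609, plus), with an r of -0.815. At the count limit, Spis_XP_022798276_1 reached 10 counts in 3 libraries and had 0.0312 to 0.443 CPM in the controls, while its partner Spis_XP_022798265_1, 176 bases away, reached it in all 18 and had 4.55 to 11.1 CPM. Just outside, Spis_XP_022802999_1 reached it in 2 libraries, with 0.0532 to 0.356 CPM in the controls.

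The compounds were also set against each other, at the same dose and time. No member was called by edgeR for cUA against cGAMP, with 168 members (6.37%) at an unadjusted p below 0.05, against 8.56% of all tested models, and the smallest adjusted p was 0.227. DESeq2 called 3 members and limma-voom 0. No pair had a changed partner ratio (108 pairs, 8.21%, at an unadjusted p below 0.05, against 9.7% of all adjacent pairs). In LOC111344498 the log2 difference of cUA from cGAMP was -1.13 (SE 0.36, edgeR adjusted p = 0.384), and in its partner LOC111344513 it was -0.98 (SE 0.35, adjusted p = 0.473). Without control 1A and cUA 2A edgeR called 84 members. The share of all tested models was not computed for that number, nor for the 3 members called by DESeq2. The absence of edgeR calls over all libraries thus does not show that the compounds act alike. No member was called by edgeR for an interaction of colony and treatment, with 273 members (10.4%) at an unadjusted p below 0.05, against 12.2% of all tested models. Without cUA 2B 5 members were called, and the share of all tested models was not computed there.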

How the data were processed

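The authors deposited whole-number read counts per gene model for 18 libraries, not normalized, with an annotation of the models. Libraries of oligo(dT)-selected RNA were made with a directional kit, per the labels' protocols. The tools STAR, featureCounts and DESeq2 appear without versions, per the submitters' processing notes. The build, the feature counted and the strand option were not given in the sources used here. Counts of models with overlapping ends can therefore hold reads of the neighbour. Depth was 22175801 to 41800393 counts per library, and no libraries of a group agreed within sampling noise (lowest chi-square 21.2 per degree of freedom).

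Coordinates are those of the deposited annotation. By protein accession 2032 of 2640 members matched a RefSeq table of jaStyPist1.2, 824 with the same accession version. It was used for symbols and neighbours alone. No sequence is shown.

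Counts were fitted with edgeR 4.0.16 in R 4.3.3 (TMM, filterByExpr over 6 groups of treatment and colony, robust quasi-likelihood test, treatment plus colony as an additive term, 14 residual degrees of freedom), with p-values adjusted by Benjamini-Hochberg over 21375 models. The biological coefficient of variation was 0.464. Partner ratios used limma 3.58.1 (trend, robust) on log2 CPM with a prior count of 2, adjusted over 16697 pairs. DESeq2 1.42.0 and limma-voom were alternatives. The code was tested on simulated data. Members, comparison sets and lists were chosen with earlier results of these data known. Named pairs have both partners tested, symbols in the reference and a mean of at least 1 CPM in each. They are the 3 largest joint rises and falls with both compounds, up to 4 opposite pairs, the 3 largest ratio changes, the 3 highest and 2 lowest correlations, the shortest gap and the pairs at the limits, where the last need no symbol. The pair just outside the count limit was added after its values were seen. The labels do not say whether a specimen number marks a shared origin across treatments. The deviations of same-numbered libraries correlated at -0.508 to 0.338, so the numbers were not taken to pair the libraries.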

Additional observations from a re-analysis of the deposited data

Results flagged for a closer look

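Among 120 groups of 6 libraries of the named models, 21 had 1 library far from the other 5 by Dixon's test of the gap to the nearest value, where chance flags about 1 in 20 groups. Of the 21, 11 are in models named for their highest or lowest correlation, and an outlying library enters that correlation, so the number is not set against that share. By library, 9 were in cUA 2A and 6 in control 1A, the libraries with the lowest composition factors (0.619 and 0.714), whose part in these values was not tested.

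In cUA 2A the highest values of their group were 342 CPM of LOC111344498, 2569 of LOC111327333, 2164 of LOC111327334, 712 of LOC111334434, 335 of LOC111334448, 263 of LOC111332268 and 166 of LOC111323860, and the lowest were 6.75 CPM of LOC111323406 and 12.3 of LOC111332283. In control 1A the highest were 16 CPM of LOC111323907, 685 of LOC111334434, 331 of LOC111334448, 400 of LOC111323473, 233 of LOC111332268 and 12.1 of LOC111320639. Both partners of a pair stood out in the same library in LOC111327333 and LOC111327334 and in LOC111334434 and LOC111334448, and in opposite directions in LOC111332268 and LOC111332283.

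The other 6 were all the highest of their group: 8.99 CPM of LOC111344513 in control 2C, 3.62 of LOC111343910 and 22.0 of LOC111323905 in cGAMP 1A, 5.68 of LOC111327633 in cGAMP 2B, 35.6 of LOC111327632 in cGAMP 1C and 41.6 of LOC111345217 in cUA 2C.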

How the results depend on the processing

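Counts of calls depend on the libraries used, and the cause was not tested. Leaving out each library in turn gave 100 to 334 called members with cUA (183 over all libraries) and 328 to 698 with cGAMP (451), 15 to 40 and 33 to 91 pairs called in the same direction (23 and 48), 1 to 6 and 6 to 33 in opposite directions (1 and 14), 25 to 164 and 157 to 350 changed ratios (60 and 237), 0 to 1 members for cUA against cGAMP and 0 to 5 for the interaction. The highest of these counts with either compound against control all came without control 1A. Opposite pairs with cGAMP numbered 7, 9, 7 and 6 without control 1B, 1C, 2A and 2B, 24 without cUA 2A, and 9, 9, 6, 8 and 8 without cGAMP 1A, 1B, 1C, 2B and 2C. With cUA they numbered 6 without control 1A and 2 without control 2C, cUA 2A or cUA 2B. The medians of r ranged from 0.264 to 0.326 over libraries and from 0.294 to 0.392 on the deviations.

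Without control 1A and cUA 2A there were 301 called members with cUA and 922 with cGAMP, 131 pairs in the same direction with cGAMP, 6 and 53 opposite pairs, 133 and 444 changed ratios and 84 members for cUA against cGAMP, and the medians of r dropped to 0.200 and 0.202. Colony 1 alone gave 63 and 238 members, 10 and 24 pairs in the same direction, 0 and 5 opposite, and 11 and 108 changed ratios. Colony 2 alone gave 30 and 59 members, 6 and 10 pairs, 0 and 1 opposite, and 5 and 15 changed ratios. These subsets have fewer libraries.

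DESeq2 called 275 members with cUA, 3 and 22 opposite pairs and 3 members for cUA against cGAMP. Opposite pairs with cUA were 2 with RLE size factors, 3 with upper quartile factors and 3 with limma-voom, and those with cGAMP were 6 with no filter on low counts. With Spearman's rho the median over libraries was 0.225. Gaps of 0 to 500 bases, with 999 pairs, held 116 called members with cUA, 9 and 27 pairs in the same direction and 0 opposite with cUA.

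With specimen number as a replicate block, 129 and 382 members were called, 21 and 37 pairs in the same direction, 2 and 10 in opposite directions, and 44 and 211 ratios changed. Whether specimens of a number share an origin is not stated. Of 49 named calls, 17 were lost in colony 1 alone, 29 in colony 2 alone and 6 under the block, and none turned its direction under any alternative run. In 1135 pairs both partners reached 10 counts in every library, and in the others low counts limit what the correlations show.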
